A study of Mus musculus with 9 samples.

Results

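The genes described here are those whose mouse symbol starts with Nduf, which name the nuclear-encoded subunits of mitochondrial complex I and several of its assembly factors. Membership was set by symbol alone, after the Entrez gene identifiers of the deposited files had been matched to RefSeq names. The symbol rule itself was chosen with earlier results of these data known. There were 48 such genes among 16873 measured, and 47 of them, with an average of 1 FPKM or more over the 9 libraries, were tested. FPKM counts sequenced fragments per length of transcript and per depth of the library. Total RNA of whole mouse hearts was sequenced in 9 libraries, 3 in each of 3 groups. The first group came from Sting-/- mice treated with doxorubicin (Sting-/- DOX), which lack the innate immune adaptor Sting1. The second came from wild-type mice treated with doxorubicin (WT DOX), an anthracycline anticancer drug that damages the heart. The third came from wild-type mice given saline (WT saline). The series text describes a low-dose schedule leading to chronic cardiotoxicity, and it asks what the DNA-sensing cGAS-STING pathway contributes to that damage. Strain, sex, age, dose and sampling time are not given in the sources used here.

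Complex I, or NADH:ubiquinone oxidoreductase, is the entry point of electrons from NADH into the respiratory chain. Its peripheral arm reaches into the matrix, oxidises NADH on a flavin and passes the electrons along iron-sulfur clusters to ubiquinone. Its membrane arm pumps protons. The heart depends on it heavily, because cardiomyocytes are filled with mitochondria and make most of their ATP by oxidative phosphorylation. The membrane-arm core subunits are encoded by mitochondrial DNA, and those genes were not analysed here.

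The deleted gene, Sting1, was at 0.06, 0 and 0 FPKM in the Sting-/- DOX libraries, against 17.49, 17.96 and 17.76 FPKM in WT DOX and 5.10, 5.43 and 5.93 FPKM in WT saline. Over all genes tested, Pearson's r of log2(FPKM + 1) lay between 0.995 and 0.997 for the 9 pairs within a group and between 0.770 and 0.943 for the 27 pairs across groups, with genes as points. Depth, estimated from the spacing of low values, was about 8500000 to 8950000 fragments in Sting-/- DOX, 13600000 to 14400000 in WT DOX and 11700000 to 12250000 in WT saline. The Sting-/- DOX libraries were the shallowest. Nothing in the labels ties each library to its own mouse, and the p-values therefore rest on a spread among libraries that may be partly or wholly technical. An untreated Sting-/- group was not analysed here, so the effect of the deletion alone and its effect under doxorubicin cannot be told apart.

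Nduf transcripts were lowest in Sting-/- DOX hearts, intermediate in WT DOX hearts and highest in WT saline hearts. The summed level of the 48 genes averaged 6271 ± 88.0 FPKM in Sting-/- DOX, 16276 ± 446 FPKM in WT DOX and 21285 ± 185 FPKM in WT saline (SD, n = 3 each). After median-ratio scaling the means were 4952, 16312 and 25417 in the same order of groups. In Sting-/- DOX against WT DOX hearts, 46 of the 47 tested genes were lower and 1, Ndufa4l2, was higher (limma on log2(FPKM + 1), Benjamini-Hochberg adjusted p of 0.05 over all genes). Over all 12485 genes tested, 29.7% were called lower and 54.1% higher in that comparison. In WT DOX against WT saline hearts, 40 of the 47 were lower, Ndufa4l2 was higher and 6 did not pass, where 21.5% of all genes were called lower and 45.3% higher. Sting-/- DOX against WT saline hearts gave 46 lower and 1 higher, against 25.9% lower and 63.0% higher over all genes. In bulk heart tissue, fewer cardiomyocytes and less Nduf RNA per cardiomyocyte cannot be told apart.

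The size of the fall differed between the comparisons. The median log2 fold change of the tested Nduf genes was -1.27 for Sting-/- DOX against WT DOX, where the median of all genes was 0.25. For WT DOX against WT saline the Nduf median was -0.34, and that of all genes 0.13. For Sting-/- DOX against WT saline the Nduf median was -1.65, and that of all genes 0.49. Relative to all genes, the Nduf medians were thus -1.52, -0.46 and -2.14 in the order given. After median-ratio scaling between libraries they were -1.57, -0.50 and -2.21, and after quantile normalization -1.32, -0.41 and -1.68. Median-ratio scaling moved the split of calls over all genes. Of those called between Sting-/- DOX and WT DOX, 64.6% were higher, against 46.7% after it. Between WT DOX and WT saline, 67.8% were higher, against 41.2% after it. Between Sting-/- DOX and WT saline, 70.9% were higher, against 49.0% after it. The comparisons share the WT DOX or WT saline libraries, so their values are set side by side and not correlated. All 9 libraries were ordered without overlap, lowest in Sting-/- DOX and highest in WT saline, for 40 of the 47 genes, against 12.8% of all genes. The opposite order without overlap held for 1 member, Ndufa4l2, against 29.9% of all genes.

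**Figure D1:**
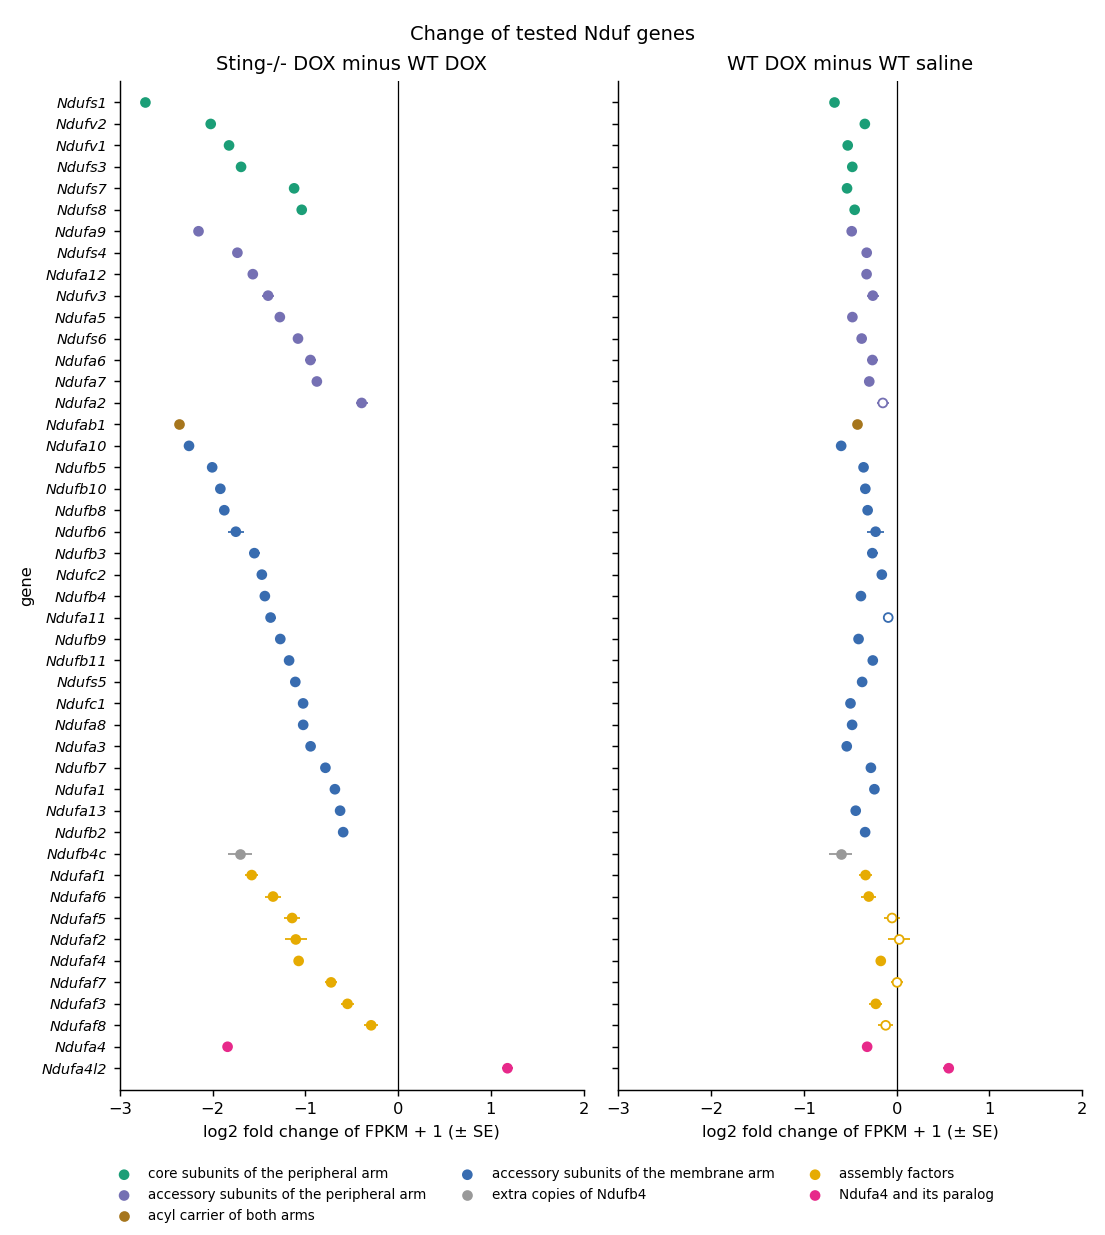
Log2 fold change of FPKM + 1 with its standard error for 46 tested Nduf genes, sorted by role, in Sting-/- DOX against WT DOX hearts (left) and WT DOX against WT saline hearts (right). Filled points passed the adjusted p of 0.05 and open points did not; on the left every point but that of Ndufa4l2 lies below 0.

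The 7 core subunits of the peripheral arm carry the flavin and the iron-sulfur clusters and are conserved from bacteria. All 7 were lower in Sting-/- DOX than in WT DOX hearts, with a median log2 fold change of -1.69, and all 7 were lower in WT DOX than in WT saline hearts, with a median of -0.53. No core subunit had overlapping groups: each library of Sting-/- DOX was below each library of WT DOX, and each of these below each of WT saline. The range among the 7 was -2.72 to -1.04 in the Sting-/- DOX comparison and -0.67 to -0.34 in the WT comparison, with standard errors of 0.034 to 0.045.

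Ndufs1, the largest core subunit and a carrier of several iron-sulfur clusters, showed the largest fall of all members in all 3 comparisons. It had 29.60, 32.16 and 32.57 FPKM in Sting-/- DOX hearts, against 209.28, 211.77 and 218.51 FPKM in WT DOX and 346.17, 335.86 and 337.62 FPKM in WT saline hearts. The fall was 6.61-fold in Sting-/- DOX against WT DOX (log2 fold change -2.72 ± 0.041 SE, adjusted p = 8.2e-14) and 1.59-fold in WT DOX against WT saline (-0.67 ± 0.041, adjusted p = 3.8e-08). The Sting-/- DOX level was thus 10.5-fold below the WT saline level. An annotated antisense gene, Ino80dos, overlaps Ndufs1 in RefSeq, and whether reads were counted by strand is not given in the sources used here, which leaves the value uncertain. In all, 11 members overlap another named gene in RefSeq.

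Ndufv1 holds the flavin mononucleotide at which NADH is oxidised, and Ndufv2 is its partner with a binuclear iron-sulfur cluster. Ndufv1 had 75.76, 77.85 and 76.84 FPKM in Sting-/- DOX hearts, against 270.83, 279.16 and 272.65 FPKM in WT DOX and 410.15, 385.17 and 392.64 FPKM in WT saline. Ndufv2 had 70.50, 74.74 and 80.18 FPKM in Sting-/- DOX, against 306.59, 299.77 and 316.04 FPKM in WT DOX and 389.43, 396.45 and 385.30 FPKM in WT saline. The pair stood at similar levels in each group, and the log2 fold changes between Sting-/- DOX and WT DOX were -1.82 ± 0.034 for Ndufv1 and -2.02 ± 0.045 for Ndufv2. Against WT saline, WT DOX hearts were lower by 1.44-fold for Ndufv1 and by 1.27-fold for Ndufv2, the smallest fall among the core subunits in that comparison.

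Ndufs7 carries the terminal iron-sulfur cluster, next to the ubiquinone-binding site. It had 209.99, 215.40 and 215.58 FPKM in Sting-/- DOX hearts, against 490.64, 430.25 and 478.66 FPKM in WT DOX and 680.99, 662.45 and 683.39 FPKM in WT saline. The groups did not overlap, and the second WT DOX library was the lowest of its group. Ndufs7 was 2.17-fold lower in Sting-/- DOX than in WT DOX (adjusted p = 2.7e-10), and its log2 fold change between WT DOX and WT saline was -0.54 ± 0.045.

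Ndufs3 is a core subunit of the peripheral arm without a cluster, and Ndufs8 carries a pair of tetranuclear clusters. Ndufs3 had 93.57, 98.28 and 94.08 FPKM in Sting-/- DOX hearts, against 315.88, 292.89 and 322.96 FPKM in WT DOX and 426.19, 440.67 and 431.76 FPKM in WT saline. Ndufs8 had 127.07, 139.49 and 135.06 FPKM in Sting-/- DOX, against 285.78, 269.71 and 272.52 FPKM in WT DOX and 375.13, 368.59 and 391.07 FPKM in WT saline. Ndufs8 showed the smallest fall of the core subunits between Sting-/- DOX and WT DOX, 2.05-fold (adjusted p = 2.9e-10), and Ndufs3 fell 3.23-fold (adjusted p = 2.9e-12).

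**Figure D2:**
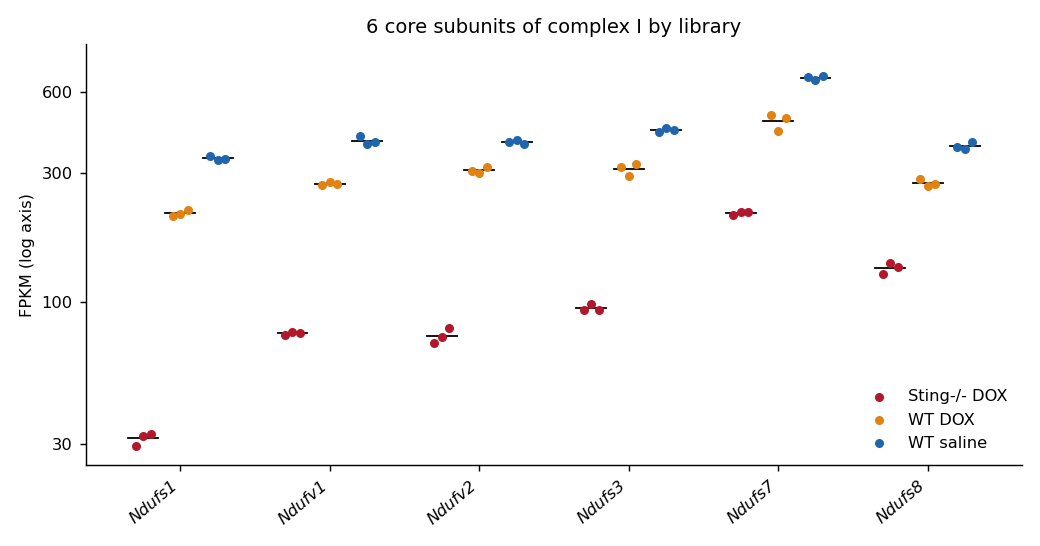
FPKM of 6 core subunits on a log axis; each point is 1 library and each bar the mean of 3, with Sting-/- DOX left, WT DOX in the middle and WT saline right. The groups do not overlap for any of the 6 genes, and Ndufs1 in Sting-/- DOX hearts, at 31.4 FPKM, is the lowest value.

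The 9 accessory subunits of the peripheral arm surround the core and help to stabilise it. All 9 were lower in Sting-/- DOX than in WT DOX hearts (median log2 fold change -1.27), and 8 of 9 were lower in WT DOX than in WT saline hearts (median -0.32), Ndufa2 being the exception. Ndufa9, which sits near the ubiquinone site and holds a nucleotide cofactor, averaged 63.8 ± 2.63 FPKM in Sting-/- DOX, 287 ± 6.31 FPKM in WT DOX and 402 ± 4.41 FPKM in WT saline (SD, n = 3 each). Its fall of 4.44-fold between Sting-/- DOX and WT DOX was the largest of the 9. Ndufs4, whose loss causes Leigh syndrome in people and a like disease in mice, averaged 34.7 ± 0.490 FPKM in Sting-/- DOX, 118 ± 4.78 FPKM in WT DOX and 147 ± 3.55 FPKM in WT saline, a fall of 3.32-fold between the doxorubicin groups. Ndufs6, which is needed for complex I assembly, fell 2.11-fold and Ndufa12, its neighbour in the finished complex, fell 2.96-fold in the same comparison.

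Ndufa2, a small accessory subunit with a thioredoxin-like fold, changed least of the structural subunits between the doxorubicin groups. It had 128.13, 144.39 and 133.68 FPKM in Sting-/- DOX hearts, against 187.83, 160.60 and 186.60 FPKM in WT DOX and 208.31, 186.75 and 197.89 FPKM in WT saline. The Sting-/- DOX libraries lay below all WT libraries, and the lowest WT saline library lay below the highest WT DOX library. The log2 fold change was -0.39 ± 0.066 for Sting-/- DOX against WT DOX (adjusted p = 0.00013) and -0.15 ± 0.066 for WT DOX against WT saline (adjusted p = 0.063). The second value passed the threshold under other scalings, with -0.40 after median-ratio scaling (adjusted p = 0.00024). In RefSeq the Ndufa2 gene overlaps Tmco6.

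The 19 measured accessory subunits of the membrane arm follow the proton-pumping part of the complex. All 19 were lower in Sting-/- DOX than in WT DOX hearts, with a median log2 fold change of -1.27 and a range of -2.25 to -0.59. Against WT saline, 18 of the 19 were lower in WT DOX hearts, with a median of -0.34. Ndufa11, a membrane-embedded subunit, was the exception and averaged 111 ± 8.32 FPKM in WT DOX and 118 ± 4.44 FPKM in WT saline (log2 fold change -0.09 ± 0.054, adjusted p = 0.15). It passed under other scalings, at -0.34 after median-ratio scaling (adjusted p = 0.00018), -0.23 after quantile normalization (0.0021) and -0.12 after TPM scaling (0.048). Ndufb6, at -0.23 (adjusted p = 0.038), passed narrowly, and its adjusted p was 0.054 to 0.14 when any 1 WT saline library, or WT DOX replicate 2 or 3, was left out. In Sting-/- DOX hearts Ndufa11 averaged 42.1 ± 1.06 FPKM, 2.59-fold below WT DOX (adjusted p = 2.0e-10).

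Ndufa10, a subunit with a nucleoside kinase fold on the matrix face of the membrane arm, led the falls of the membrane arm. It had 69.29, 72.01 and 73.35 FPKM in Sting-/- DOX hearts, against 346.32, 344.58 and 343.97 FPKM in WT DOX and 523.87, 513.07 and 532.06 FPKM in WT saline. The groups were far apart and the libraries of a group close together, with a fall of 4.77-fold between Sting-/- DOX and WT DOX and of 1.51-fold between WT DOX and WT saline. Ndufb5, Ndufb10 and Ndufb8, all of the distal membrane arm, followed with falls of 4.01-fold, 3.77-fold and 3.66-fold between Sting-/- DOX and WT DOX. Ndufb2, Ndufa13 and Ndufa1 were at the other end, with falls of 1.51-fold, 1.54-fold and 1.6-fold. Ndufa13 is also known as Grim19, a protein linked to cell death, and Ndufa1 is needed for assembly of the membrane arm.

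The mitochondrial acyl carrier protein Ndufab1 is found in both arms and also serves mitochondrial fatty acid synthesis and iron-sulfur cluster formation. It had 127.46, 125.42 and 127.06 FPKM in Sting-/- DOX hearts, against 698.24, 626.67 and 641.32 FPKM in WT DOX and 891.28, 863.22 and 883.69 FPKM in WT saline. This was the second largest fall between the doxorubicin groups, 5.14-fold (log2 fold change -2.36 ± 0.040, adjusted p = 1.9e-13). In WT DOX hearts the level was 1.34-fold below that of WT saline (adjusted p = 1.8e-06).

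Transcripts of subunits that fell to different degrees changed rank by level. Among the 36 measured structural subunits, Ndufa3, a small membrane-arm subunit, had the highest mean level in every group, at 456 FPKM in Sting-/- DOX, 879 FPKM in WT DOX and 1276 FPKM in WT saline. The lowest was Ndufs1 in Sting-/- DOX hearts, at 31.4 FPKM, but Ndufa11 in WT DOX and in WT saline hearts, at 111 and 118 FPKM. The highest level was 14.5-fold above the lowest in Sting-/- DOX, 7.92-fold in WT DOX and 10.8-fold in WT saline. Ndufs1 ranked 36 of 36 by level in Sting-/- DOX and 29 in WT DOX as in WT saline. Ndufab1 ranked 23 in Sting-/- DOX, 5 in WT DOX and 4 in WT saline, and Ndufa2 moved the other way, to rank 19 in Sting-/- DOX, against 32 in WT DOX and 33 in WT saline.

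The ratio of Ndufs1 to Ndufa2 in FPKM puts the ends of this range together within each library. It does not depend on scaling by a common factor per library, as in TPM or median-ratio scaling, but quantile normalization can change it. It was 0.231, 0.223 and 0.244 in Sting-/- DOX hearts, 1.11, 1.32 and 1.17 in WT DOX hearts and 1.66, 1.80 and 1.71 in WT saline hearts. Both genes were picked for the size of their change, so the ratio is a description. As a share of the summed FPKM of the 36 subunits, Ndufs1 made up 0.568 ± 0.022% in Sting-/- DOX, 1.51 ± 0.061% in WT DOX and 1.83 ± 0.014% in WT saline (SD, n = 3 each).

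**Figure D3:**
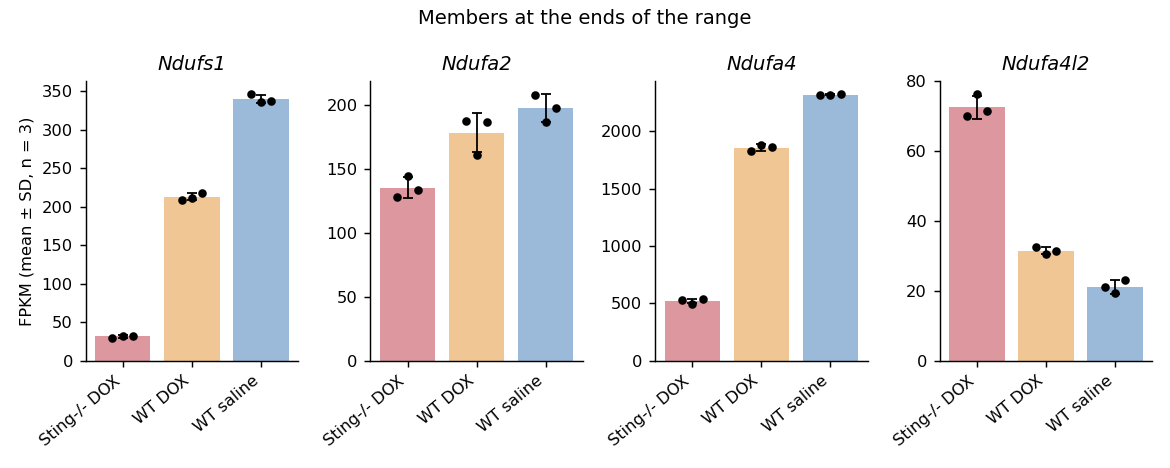
FPKM of Ndufs1, Ndufa2, Ndufa4 and Ndufa4l2 in each library (points) with the mean and SD of 3 (bars), Sting-/- DOX left, WT DOX in the middle and WT saline right. Ndufs1 spans 31.4 to 340 FPKM between group means, Ndufa2 only 135 to 198 FPKM, and Ndufa4l2 alone is highest in Sting-/- DOX hearts.

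The 8 assembly factors help to build the complex but are not part of it. All 8 were lower in Sting-/- DOX than in WT DOX hearts, with a median log2 fold change of -1.09, and 4 of 8 were lower in WT DOX than in WT saline hearts, with a median of -0.15. Their summed level was 129.9 ± 7.91 FPKM in Sting-/- DOX, 234 ± 4.73 FPKM in WT DOX and 259 ± 13.2 FPKM in WT saline.

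Ndufaf1, a chaperone for early membrane-arm intermediates, changed most among the assembly factors. It had 9.84, 11.71 and 11.74 FPKM in Sting-/- DOX hearts, against 35.19, 33.31 and 36.63 FPKM in WT DOX and 42.11, 45.21 and 46.18 FPKM in WT saline. The fall was 2.99-fold in Sting-/- DOX against WT DOX (adjusted p = 4.5e-10) and 1.26-fold in WT DOX against WT saline (adjusted p = 0.00087). The groups did not overlap.

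Ndufaf3 and Ndufaf4 act together on an early intermediate of the peripheral arm. Ndufaf3 had 9.94, 10.88 and 10.02 FPKM in Sting-/- DOX hearts, against 15.61, 15.67 and 15.08 FPKM in WT DOX and 17.18, 20.58 and 17.14 FPKM in WT saline. Ndufaf4 had 11.64, 12.33 and 12.21 FPKM in Sting-/- DOX, against 26.41, 26.88 and 26.07 FPKM in WT DOX and 29.62, 30.32 and 29.83 FPKM in WT saline. The partners were 1.46-fold and 2.10-fold lower in Sting-/- DOX than in WT DOX, Ndufaf3 first. Ndufaf6, a factor needed in early assembly, had 5.73, 5.17 and 4.26 FPKM in Sting-/- DOX, against 14.61, 13.58 and 14.83 FPKM in WT DOX and 17.30, 17.56 and 18.83 FPKM in WT saline. It was thus 2.55-fold lower in Sting-/- DOX than in WT DOX (adjusted p = 1.2e-08).

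The other 4 assembly factors did not pass the test between WT DOX and WT saline hearts. Ndufaf2, which binds a late intermediate in the place of Ndufa12, had 11.54, 17.07 and 12.30 FPKM in Sting-/- DOX hearts, against 29.82, 31.37 and 28.93 FPKM in WT DOX and 27.00, 32.82 and 28.82 FPKM in WT saline. Ndufaf5, which hydroxylates an arginine of Ndufs7, had 10.10, 12.46 and 10.08 FPKM in Sting-/- DOX, against 24.30, 23.18 and 28.11 FPKM in WT DOX and 26.84, 26.69 and 24.66 FPKM in WT saline. Ndufaf7, an arginine methyltransferase needed for early assembly, had 10.11, 11.60 and 11.56 FPKM in Sting-/- DOX, against 18.53, 18.08 and 20.19 FPKM in WT DOX and 17.95, 20.26 and 18.45 FPKM in WT saline. In these 3 genes the WT groups overlapped, with log2 fold changes of 0.03, -0.05 and 0.00 in the order given, and the Sting-/- DOX libraries lay below all of them. Ndufaf8, a partner of Ndufaf5, had 52.02, 51.66 and 63.70 FPKM in Sting-/- DOX, against 69.88, 66.47 and 68.08 FPKM in WT DOX and 72.09, 80.99 and 69.61 FPKM in WT saline. Its fall of 1.22-fold between Sting-/- DOX and WT DOX was the smallest of any member (adjusted p = 0.0041). The small differences between the WT groups turned with the scaling: the log2 fold change of Ndufaf7 was -0.24 after median-ratio scaling, with an adjusted p of 0.0074.

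Ndufa4 was named as a complex I subunit and has since been assigned to complex IV, and Ndufa4l2 is its hypoxia-inducible paralog, which replaces it under low oxygen and restrains respiration. Ndufa4, the most abundant Nduf transcript, had 526.23, 497.24 and 534.52 FPKM in Sting-/- DOX hearts, against 1825.92, 1883.10 and 1867.77 FPKM in WT DOX and 2313.78, 2319.02 and 2323.36 FPKM in WT saline. Ndufa4l2 had 69.99, 76.21 and 71.41 FPKM in Sting-/- DOX, against 32.60, 30.46 and 31.36 FPKM in WT DOX and 20.95, 19.22 and 23.01 FPKM in WT saline. The paralogs thus ran in opposite order over the groups, without overlap in either gene. Ndufa4 was 3.58-fold lower (adjusted p = 2.7e-13) and Ndufa4l2 2.26-fold higher (adjusted p = 2.9e-09) in Sting-/- DOX than in WT DOX hearts. Ndufa4 was 1.25-fold lower (adjusted p = 4.1e-06) and Ndufa4l2 1.48-fold higher (adjusted p = 6.6e-06) in WT DOX than in WT saline hearts.

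The Ndufa4l2 to Ndufa4 ratio in FPKM was 0.140 ± 0.012 in Sting-/- DOX, 0.0169 ± 0.0008 in WT DOX and 0.0091 ± 0.0008 in WT saline (SD, n = 3 each). Ndufa4 stayed the more abundant of the 2 in all 9 libraries. Ndufa4l2 is known as a transcript of pericytes and smooth muscle, and the 6 markers of those cells summed to 911 ± 27.0 FPKM in Sting-/- DOX, 240.2 ± 6.10 FPKM in WT DOX and 306 ± 23.3 FPKM in WT saline. Of these markers 5 were higher in Sting-/- DOX than in WT DOX hearts, Tagln most (log2 fold change 3.43), and Kcnj8, a pericyte marker, was at -0.12 (adjusted p = 0.11). Between WT DOX and WT saline hearts, 3 of the 6 were lower in WT DOX, Tagln was higher (1.11) and 2 did not pass. The lower ones were Rgs5 (-0.90), Myh11 (-0.56) and Kcnj8 (-0.43). Against WT saline, 4 of the 6 were higher in Sting-/- DOX, while Rgs5 (-0.35) and Kcnj8 (-0.55) were lower. In Sting-/- DOX hearts most of the summed marker level came from Acta2 (401 FPKM) and Tagln (342 FPKM). The part of pericytes and smooth muscle in the Ndufa4l2 differences was not tested. RefSeq places Ndufa4l2 overlapping Shmt2.

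Both extra copies of Ndufb4 are uncertain, since they are close copies of Ndufb4 and reads may be split between them. Ndufb4c had 19.60, 16.22 and 15.87 FPKM in Sting-/- DOX hearts, against 68.88, 57.68 and 49.73 FPKM in WT DOX and 80.77, 106.16 and 82.27 FPKM in WT saline. It followed Ndufb4 itself, which averaged 243 ± 5.86 FPKM in Sting-/- DOX, 660.2 ± 6.68 FPKM in WT DOX and 863 ± 11.8 FPKM in WT saline. Ndufb4b was listed at 0, 0 and 2.39 FPKM in Sting-/- DOX, at 0 in all 3 WT DOX libraries and at 1.51, 0 and 0 FPKM in WT saline, and was not tested.

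Most heart muscle markers were lower too, with medians further from 0 than those of the Nduf genes. All 12 cardiomyocyte markers were lower in Sting-/- DOX than in WT DOX hearts (median log2 fold change -2.24), and 10 of 12 were lower in WT DOX than in WT saline hearts (median -0.70), where Nkx2-5 was higher (0.16, adjusted p = 0.049) and Tnnt2 did not pass (-0.10). Their summed level ranged from 10886 to 11446 FPKM in Sting-/- DOX, from 50169 to 53230 FPKM in WT DOX and from 78224 to 79400 FPKM in WT saline. None of the 12 was at 0 in any group, with Myh6, Tnnt2 and Actc1 among them. Relative to that sum, the summed Nduf level was 55.8 ± 0.868% in Sting-/- DOX, 31.5 ± 0.162% in WT DOX and 27.1 ± 0.0913% in WT saline. The Nduf genes were thus lower per library but higher relative to the summed RNA of these 12 markers in Sting-/- DOX hearts. That sum does not stand for each marker. Against WT saline, Tnnt2 and Nkx2-5 fell less in Sting-/- DOX hearts (log2 fold changes -1.56 and -1.47) than the Nduf median of -1.65. The median of the 12 markers in that comparison was -3.01. What part of the Nduf differences comes with the cardiomyocyte share of the RNA was not tested.

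Most markers of other cell types were higher in Sting-/- DOX hearts, and their part in the Nduf differences was not tested. All 7 endothelial markers were higher in Sting-/- DOX than in WT DOX hearts (median log2 fold change 2.01), and their sum was 1193 to 1279 FPKM in Sting-/- DOX, 281 to 288 FPKM in WT DOX and 293 to 302 FPKM in WT saline. Of 7 fibroblast markers 6 were higher in Sting-/- DOX than in WT DOX and 6 in WT DOX than in WT saline, with sums of 5897 to 6293 FPKM in Sting-/- DOX, 902 to 931 FPKM in WT DOX and 501 to 512 FPKM in WT saline. Of 6 macrophage markers 5 were higher in each of these comparisons, and their sums were 1949 to 2016 FPKM in Sting-/- DOX, 992 to 1126 FPKM in WT DOX and 320.0 to 364 FPKM in WT saline. Mesothelial markers, which mark the lining of the heart surface, were higher in Sting-/- DOX than in WT DOX in 5 of 5 and summed to 81.5 to 84.7 FPKM in Sting-/- DOX, 5.20 to 7.11 FPKM in WT DOX and 3.86 to 5.65 FPKM in WT saline. The 5 globin and Alas2 transcripts of red cells, all higher in Sting-/- DOX than in WT DOX, summed to 8480 to 9700 FPKM in Sting-/- DOX, 1498 to 1638 FPKM in WT DOX and 2454 to 2548 FPKM in WT saline. All 4 neutrophil markers were lower in Sting-/- DOX than in WT DOX, with sums of 77.4 to 89.9 FPKM in Sting-/- DOX, 202 to 270 FPKM in WT DOX and 5.99 to 6.23 FPKM in WT saline. Of 5 brown fat markers, Ucp1 and Plin1 were under the 1 FPKM filter, Fabp4, which endothelium also makes, was at a log2 fold change of 2.33 between Sting-/- DOX and WT DOX, and Cidea was at -2.57. Adipoq was at 0.70 in that comparison (adjusted p = 0.084) and higher in WT DOX than in WT saline (2.41).

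Genes of complexes III, IV and V of the same chain were also mostly lower. Of their 42 tested nuclear-encoded subunits, 38 were lower and 3 higher in Sting-/- DOX than in WT DOX hearts (median log2 fold change -1.51), and 36 were lower and 2 higher in WT DOX than in WT saline hearts (median -0.33). The summed Nduf level was 42.9 ± 0.468% of theirs in Sting-/- DOX, 36.6 ± 0.294% in WT DOX and 37.7 ± 0.233% in WT saline (SD, n = 3 each). Ndufa4, since assigned to complex IV, is counted in the Nduf sum and not in theirs. It averaged 519 FPKM in Sting-/- DOX, 1859 FPKM in WT DOX and 2319 FPKM in WT saline. Mitochondrial ribosomal proteins, which translate the mitochondrial DNA products, had medians nearer to 0. Of 78 tested, 72 were lower and 2 higher in Sting-/- DOX than in WT DOX (median -0.72), and 32 were lower and 12 higher in WT DOX than in WT saline (median -0.08). The Nduf sum was 202 ± 0.721% of theirs in Sting-/- DOX, 305 ± 2.19% in WT DOX and 366 ± 4.54% in WT saline. The difference between these groups of genes was not tested.

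**Figure D4:**
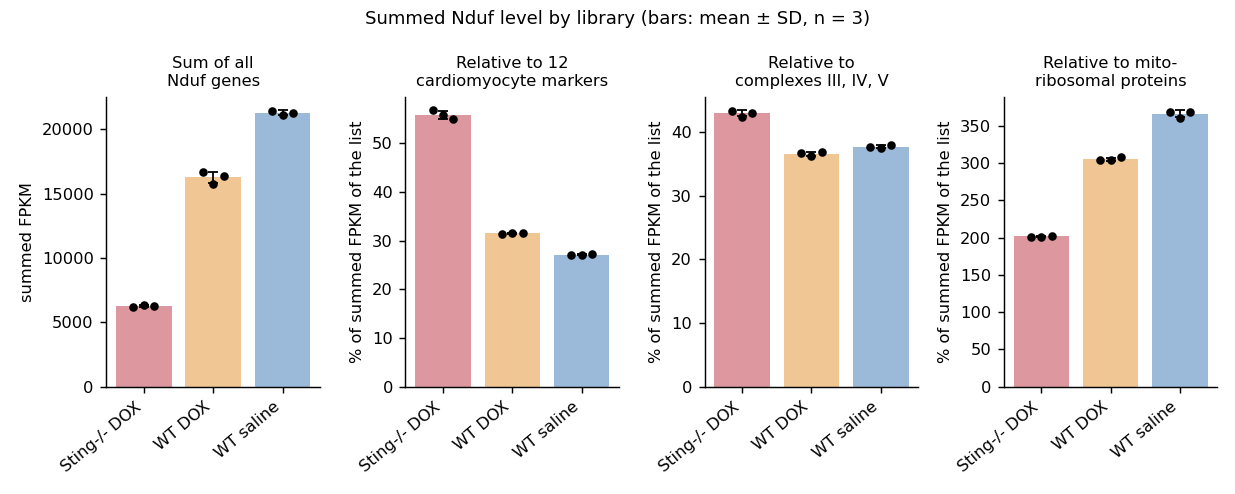
Summed FPKM of the 48 Nduf genes, and the same sum as a percentage of 3 other sums (12 cardiomyocyte markers, complexes III to V, mitochondrial ribosomal proteins), for each library (points) with mean and SD (bars), Sting-/- DOX left, WT DOX in the middle and WT saline right. The sum is lowest in Sting-/- DOX hearts at 6271 FPKM, while its ratio to the sum of the 12 cardiomyocyte markers is highest there at 55.8%. Ndufa4, since assigned to complex IV, is in the Nduf sum.

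**Figure D5:**
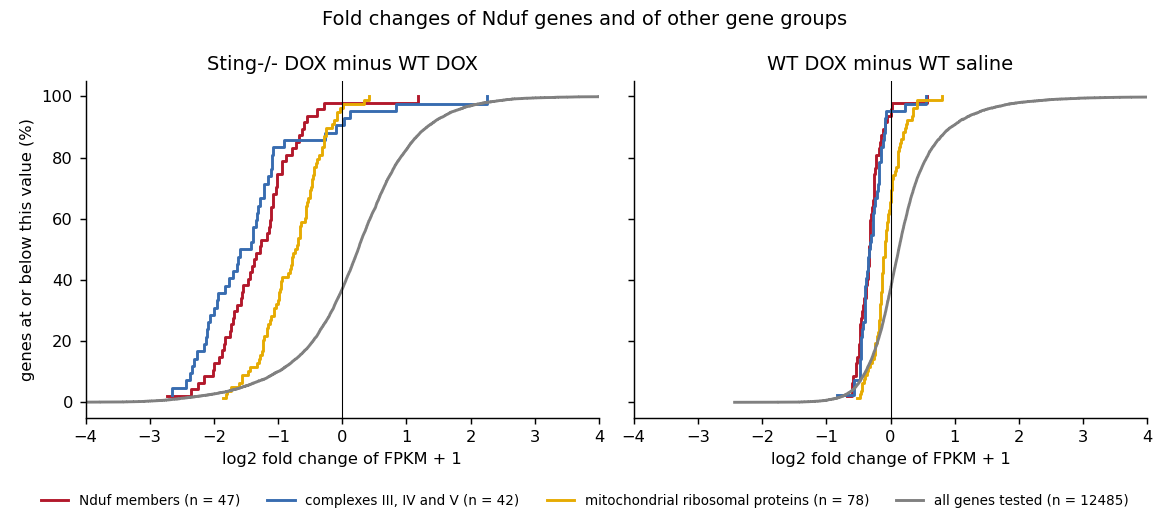
Share of genes at or below each log2 fold change of FPKM + 1 for the Nduf genes, complexes III to V, mitochondrial ribosomal proteins and all genes tested, in Sting-/- DOX against WT DOX hearts (left) and WT DOX against WT saline hearts (right); the axis is cropped at its ends. On the left the Nduf curve (median -1.27) lies between complexes III to V (-1.51) and the ribosomal proteins (-0.72); on the right it lies on the curve of complexes III to V.

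Assembly factors of complex I without an Nduf name were mostly lower as well. Of 11 tested, 9 were lower in Sting-/- DOX than in WT DOX hearts (median log2 fold change -0.86), and 8 were lower in WT DOX than in WT saline hearts (median -0.33). Tmem70, which helps to assemble the membrane arm, changed most between the doxorubicin groups (-1.44), and Ecsit and Tmem126b, partners of Ndufaf1, were at -1.19 and -1.15. Dmac1 and Dmac2, which act on the distal membrane arm, were at -0.03 and 0.02 and did not pass (adjusted p = 0.79 each). Complex II feeds electrons from succinate to the same ubiquinone pool. Its 8 genes, subunits and assembly factors together, were all lower in Sting-/- DOX than in WT DOX (median -1.40). The subunits Sdha, Sdhb, Sdhc and Sdhd were at -2.68, -2.01, -1.80 and -2.45. The assembly factors Sdhaf1, Sdhaf2, Sdhaf3 and Sdhaf4 fell less, at -0.39, -0.46, -0.99 and -0.72. The flavoprotein Sdha was close to Ndufs1.

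Enzymes that make or share NADH with complex I also differed. Of 5 tested, 4 were lower in both comparisons. Dld and Mdh2, which produce NADH in the matrix, had log2 fold changes of -2.19 and -2.19 in Sting-/- DOX against WT DOX hearts. Gpd2, which bypasses complex I from the cytosolic side, was at 0.05 (adjusted p = 0.54). Nnt, the transhydrogenase that passes electrons from NADH to NADP, averaged 14.1 ± 0.093 FPKM in Sting-/- DOX, 78.5 ± 2.71 FPKM in WT DOX and 317 ± 15.2 FPKM in WT saline. Its log2 fold change of -2.0 between WT DOX and WT saline was larger in size than that of any Nduf gene.

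Transcription factors and coactivators known to drive respiratory chain genes were mostly lower too. Of 10 tested, 9 were lower and 1, Nrf1, was higher in Sting-/- DOX than in WT DOX hearts, and 7 were lower and Nrf1 higher in WT DOX than in WT saline hearts. Ppargc1a, which encodes the coactivator PGC-1 alpha, averaged 1.31 ± 0.093 FPKM in Sting-/- DOX, 16.1 ± 0.698 FPKM in WT DOX and 25.5 ± 0.186 FPKM in WT saline. Perm1, a muscle partner of the estrogen-related receptors, averaged 6.53 ± 0.411 FPKM in Sting-/- DOX, 60.9 ± 2.15 FPKM in WT DOX and 94.9 ± 1.10 FPKM in WT saline. Esrra, a receptor that binds many such promoters, differed less, at 44.0 ± 3.06 FPKM in Sting-/- DOX, 59.8 ± 3.54 FPKM in WT DOX and 67.3 ± 3.22 FPKM in WT saline. Nrf1, nuclear respiratory factor 1, was at log2 fold changes of 0.51 in Sting-/- DOX against WT DOX (adjusted p = 1.3e-05) and 0.43 in WT DOX against WT saline. Whether these regulators act on the Nduf genes in these hearts was not tested.

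Because most Nduf genes moved together, their promoters were read for the binding letters of 4 factors known from respiratory chain genes. RefSeq (GRCm38.p6) gave a window of 300 bases, from 250 before to 50 after the start, for 41 of the 48 genes, and both strands were searched. The letters of NRF1, GCATGCG, were in 5 of 41 Nduf windows (12.2%), against 4.02% of all 27025 gene windows, and the palindrome CGCATGCG counts once although it matches on both strands. AAGGTCA, of the estrogen-related receptors (ERR), was in 3 windows (7.32%), against 5.38% of all. CCGGAAG, of ETS factors such as Gabpa, was in 6 windows (14.6%), against 9.93%. AAGATGG, of YY1, was in 8 windows (19.5%), against 7.28%, and always after the start. Any of the 4 was in 21 windows (51.2%), against 23.8% of all, and 20 Nduf windows held none. The 27025 windows outnumber the 16873 measured genes, so this background includes genes that were not measured in these hearts. Shares among measured genes alone were not taken.

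NRF1 and ERR letters were picked for display with the changes of Nrf1, Ppargc1a and Perm1 known, and no link between them was tested. Stretches with YY1 or ETS letters are not shown. The stretches with NRF1 or ERR letters before the start follow. Each is 60 bases on the gene's own strand, 5′ to 3′, with the letters of the motif in capitals; positions are counted from the RefSeq start.
Ndufa11, NRF1 letters, chr17:56717677-56717736, plus strand, -85 to -26 bases from the start: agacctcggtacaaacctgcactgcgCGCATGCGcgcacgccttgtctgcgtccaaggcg
Ndufa6, NRF1 letters, chr15:82354341-82354400, minus strand, -109 to -50 bases from the start: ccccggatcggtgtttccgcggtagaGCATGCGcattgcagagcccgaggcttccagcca
Ndufa8, NRF1 letters, chr2:36049339-36049398, minus strand, -60 to -1 bases from the start: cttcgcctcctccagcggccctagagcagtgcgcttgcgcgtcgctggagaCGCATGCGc
Ndufaf4, NRF1 letters, chr4:24897945-24898004, plus strand, -138 to -79 bases from the start: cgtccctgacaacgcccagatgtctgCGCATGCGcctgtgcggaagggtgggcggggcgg
Ndufb2, ERR letters, chr6:39592358-39592417, plus strand, -207 to -148 bases from the start: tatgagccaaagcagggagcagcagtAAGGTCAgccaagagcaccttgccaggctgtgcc
Ndufb4, ERR letters, chr16:37654390-37654449, minus strand, -81 to -22 bases from the start: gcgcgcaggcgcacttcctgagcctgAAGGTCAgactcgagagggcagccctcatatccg
Ndufs5, ERR letters, chr4:123718377-123718436, minus strand, -250 to -191 bases from the start: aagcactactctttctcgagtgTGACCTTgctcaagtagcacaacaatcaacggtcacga
Between Sting-/- DOX and WT DOX hearts, the genes with NRF1 letters before the start had log2 fold changes of -1.37 for Ndufa11, -0.94 for Ndufa6, -1.02 for Ndufa8 and -1.07 for Ndufaf4. Those with ERR letters were at -0.59 for Ndufb2, -1.44 for Ndufb4 and -1.11 for Ndufs5. Ndufaf5, with NRF1 letters only after the start, was at -1.14. Whether the letters have a part in these fold changes was not tested. Genes without a window include Ndufa2, Ndufa4l2, Ndufaf6, Ndufb4c, Ndufb9 and Ndufs1. A match of letters is a description and not a binding site.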

How the data were processed

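Total RNA of whole hearts was sequenced with an MGIEasy library kit, per the labels' protocols. The submitters' processing notes list HISAT2 2.0.4, Bowtie2 2.2.5, RSEM 1.2.12 and GRCm39, with no role or order. The authors deposited FPKM per gene and library, and counts were not used. Entrez identifiers were matched to RefSeq symbols (16825 matched, 48 did not), and the RefSeq table is of GRCm38.p6, used for names, neighbours and promoter windows. The Nduf members and the other gene lists were chosen with earlier results of these data known. FPKM values were taken as log2(FPKM + 1), genes under a mean of 1 FPKM were left out, and limma 3.58.1 in R 4.3.3 was fitted to all 9 libraries at once (6 residual degrees of freedom, trended prior, two-sided) with Benjamini-Hochberg adjustment over 12485 genes. Fold changes on this scale understate those of low genes. The fit was also run on simulated data in which few genes changed, unlike in these hearts. That run therefore does not bear on how scaling moves the calls. An exact permutation test of 3 against 3 libraries cannot go below p = 0.1. 1 core subunit is counted but not reported here by itself. Genes named with every library are the other core subunits, the assembly factors, Ndufa4, Ndufa4l2 and the 3 largest rises and falls of each comparison. Motifs were searched by exact letters. Alternatives were other pseudocounts, filters, scalings, variance priors, a replicate block, 2-group fits and leaving out each library.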

Additional observations from a re-analysis of the deposited data

How the results depend on the processing

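In the 3 comparisons the number of Nduf genes lower was 46 for Sting-/- DOX against WT DOX and against WT saline under all settings tried, and 39 to 45 for WT DOX against WT saline (39 to 41 with 1 library left out), and the number higher was 1 throughout. The median log2 fold change for WT DOX against WT saline was -0.58 after median-ratio scaling and -0.52 after quantile normalization, against -0.34 as reported, and -0.34 to -0.30 with 1 library left out. For Sting-/- DOX against WT DOX it was -1.62 after median-ratio scaling and -1.21 after TPM scaling, and -1.32 to -1.25 with 1 library left out. For Sting-/- DOX against WT saline it was -2.22 after median-ratio scaling, -1.62 after TPM scaling and -1.66 with a pseudocount of 0.1 FPKM, and -1.66 to -1.59 with 1 library left out. Median-ratio scaling moved the median of all genes to -0.09 for WT DOX against WT saline, against 0.13 as reported, and to -0.05 for Sting-/- DOX against WT DOX, against 0.25. For Sting-/- DOX against WT saline that median moved to -0.02, against 0.49.

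Among the 47 tested members and the settings tried, the sign turned only for Ndufaf2, Ndufaf5 and Ndufaf7 between WT DOX and WT saline. Ndufaf2 was at -0.22 after median-ratio scaling, -0.14 after quantile normalization and -0.0034 after TPM scaling, and at -0.034 without WT saline replicate 1 and -0.0038 without WT DOX replicate 2 (-0.034 to 0.10 over all single libraries left out). Ndufaf7 was at -0.24, -0.18 and -0.026 under the same scalings, and at -0.030 and -0.012 without WT saline replicate 1 or 3 and -0.041 without WT DOX replicate 3 (-0.041 to 0.053). Ndufaf5 was at 0.0050 without WT DOX replicate 2 (-0.13 to 0.0050). Ndufa2, Ndufa11, Ndufaf5, Ndufaf7 and Ndufaf8 were called lower in WT DOX after median-ratio scaling and after quantile normalization, Ndufa2 and Ndufa11 also after TPM scaling, and Ndufa2 without WT saline replicate 2 (adjusted p = 0.039) or WT DOX replicate 1 (adjusted p = 0.038). Ndufb6 was no longer called in that comparison with the replicate block (adjusted p = 0.051), without the filter (0.069), without the variance trend (0.065) and without any 1 WT saline library or WT DOX replicate 2 or 3 (0.054 to 0.14). The summed Nduf level after median-ratio scaling was 4952 in Sting-/- DOX, 16312 in WT DOX and 25417 in WT saline, and 6419 in Sting-/- DOX after TPM scaling. The causes of these changes were not tested.

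Deviations from the group means had correlations of -0.032 to 0.104 in 9 pairs of libraries with the same replicate number. In 18 pairs of different numbers they were -0.066 to 0.035. The same-number pairs of WT saline and WT DOX were at 0.040, 0.104 and 0.020. With 3 libraries a group, these values cannot tell whether libraries were paired, and the main fit used no pairing. With the replicate block the counts of Nduf genes lower were 39 for WT DOX against WT saline and 46 in each of the other comparisons. The Sting-/- DOX libraries were the shallowest, and how depth limits the precision of single members was not tested.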
